A study of Mus musculus with 6 samples.

Results

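The proteasome genes described here were the 44 genes, of 55416 in the deposited table, whose pathway column lists the KEGG proteasome pathway of the mouse (mmu03050). They encode the 20S core, the inducible and tissue-restricted core subunits, the 19S regulatory particle, the other activators of the core, an inhibitor and an assembly factor, and the list also holds the cytokine *Ifng*. The membership rule used no expression value. RNA was sequenced from muscle satellite cells (SCs), the stem cells of skeletal muscle, which were sorted from mouse muscle and cultured for 4 days on Matrigel. The growth medium held serum, chick embryo extract and basic fibroblast growth factor. The paper's methods describe the sorted cells as Sca1-/CD11b-/CD34+/α7-integrin+, though the stains listed there name neither CD11b nor CD34. The 3 WT libraries came from wild-type mice. The 3 *Ltf*-KO libraries came from mice whose lactoferrin gene was knocked out by deleting part of it with CRISPR-Cas9 in C57/BL6N zygotes. Every tissue of the donor thus carried the knockout before the cells were sorted. No further treatment was given to either genotype, and donors were 8 to 10 weeks of age if the general housing methods apply to them, since the labels give none. The sources used here do not say whether the 3 cultures of a genotype came from separate mice, so every p-value below measures the spread between these libraries, which may be technical.

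The proteasome degrades proteins that carry a ubiquitin chain. Its 20S core is a barrel with outer rings of alpha subunits, which gate the entry, and inner rings of beta subunits, of which Psmb5, Psmb6 and Psmb7 cut the substrate. The 19S particle caps the barrel, recognises the ubiquitin chain, removes it and unfolds the substrate with a ring of ATPases. Under interferon-gamma, many cells replace the cutting subunits by Psmb8, Psmb9 and Psmb10, which gives the immunoproteasome, and raise the PA28 activator made of Psme1 and Psme2. In skeletal muscle the ubiquitin-proteasome route is known for the breakdown of myofibrillar proteins during wasting, and muscle stem cells need proteasome activity to proliferate.

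The promoters of the constitutive and inducible forms of 2 of the cutting subunits are shown because these inducible forms lay furthest below their constitutive partners. Each sequence is the RefSeq window on GRCm38.p6 from 250 bases before the gene's start to 50 bases after it, written 5′ to 3′ on the gene's strand. The windows are chr14:54617946-54618245 (minus strand) for *Psmb5*, chr17:34197945-34198244 (plus strand) for *Psmb8*, chr11:70525107-70525406 (plus strand) for *Psmb6* and chr17:34187281-34187580 (minus strand) for *Psmb9*. Capitals mark matches, on either strand, to TGACNNNGC (the core of the antioxidant response element, which NRF1 and NRF2 bind), to CCAAT (read as ATTGG on the other strand) and to the core of the interferon-stimulated response element (GAAA and GAAA with any 2 bases between). No matches overlapped each other in these windows.
Psmb5 promoter: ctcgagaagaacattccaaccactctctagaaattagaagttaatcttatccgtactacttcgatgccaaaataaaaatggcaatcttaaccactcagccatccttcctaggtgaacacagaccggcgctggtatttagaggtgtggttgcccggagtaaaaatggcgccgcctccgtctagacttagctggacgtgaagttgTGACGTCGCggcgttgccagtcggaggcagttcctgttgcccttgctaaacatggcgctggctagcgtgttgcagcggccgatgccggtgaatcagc
Psmb8 promoter: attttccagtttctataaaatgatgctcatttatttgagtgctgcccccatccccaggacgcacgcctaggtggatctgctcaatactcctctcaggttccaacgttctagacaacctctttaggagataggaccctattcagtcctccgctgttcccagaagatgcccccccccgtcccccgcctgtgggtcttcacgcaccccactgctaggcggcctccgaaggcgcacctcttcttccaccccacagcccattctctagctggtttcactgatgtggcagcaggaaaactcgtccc
Psmb6 promoter: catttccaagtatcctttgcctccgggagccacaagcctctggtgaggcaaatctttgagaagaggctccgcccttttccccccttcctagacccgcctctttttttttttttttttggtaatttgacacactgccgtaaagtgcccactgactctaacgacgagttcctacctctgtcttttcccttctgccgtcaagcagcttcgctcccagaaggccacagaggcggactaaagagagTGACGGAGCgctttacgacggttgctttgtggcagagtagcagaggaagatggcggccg
Psmb9 promoter: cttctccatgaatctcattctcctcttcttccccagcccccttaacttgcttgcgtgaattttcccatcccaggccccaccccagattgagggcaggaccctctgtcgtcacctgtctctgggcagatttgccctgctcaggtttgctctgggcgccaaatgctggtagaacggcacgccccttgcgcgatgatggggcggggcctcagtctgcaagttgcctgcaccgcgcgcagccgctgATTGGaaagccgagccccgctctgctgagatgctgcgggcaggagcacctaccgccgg

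In these windows *Psmb5* and *Psmb6* held 1 match to TGACNNNGC each, *Psmb9* held 1 match to CCAAT, and *Psmb8* held no match to any of the 3 motifs. Windows were found for 37 of the 44 members (39 windows, since a gene can have more than 1 start), and not for *Psma8*, *Psmb1*, *Psmb2*, *Psmb7*, *Psmc3*, *Psmd3* and *Psmd7*. TGACNNNGC was present in 7 member windows (17.9%), those of *Adrm1*, *Psmb5*, *Psmb6*, *Psmc6*, *Psmd12*, *Psme4* and *Sem1*, and in 12.4% of all 32851 promoter windows of the same length. CCAAT was present in 13 member windows (33.3%) and in 37.4% of all windows. The core of the interferon-stimulated response element was present in 3 member windows (7.69%), those of *Psmb3*, *Psmd4* and *Psme1*, and in 3.44% of all windows. The median GC content was 57.3% in the member windows and 52.7% in all windows. In the gene order of the RefSeq assembly GRCm38.p6, *Psmb9*, *Tap1*, *Psmb8* and *Tap2* are neighbours among protein-coding genes, *Psme1* and *Psme2* are separated only by *Emc9*, and *Psmb5* lies beside *Psmb11*. A match describes the letters of the window and is not a measurement of binding.

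Levels are in TPM, a measure of transcript abundance that divides reads by gene length and scales each library to a common total, so levels may be compared between genes, while the depth behind a value is unknown. Genes at 1 TPM or more numbered 12828 to 12951 per library. The targeted gene *Ltf* was listed at 0.12, 0.02 and 0.02 TPM in WT and at 0.02, 0.03 and 0 TPM in *Ltf*-KO libraries, so it was near 0 in both genotypes and does not check the labels. All 8 markers of satellite cells and myoblasts were at 1 TPM or more, and their sum was 1987 to 2035 TPM in WT and 2018 to 2066 TPM in *Ltf*-KO libraries. Of the markers of other cells, none of 6 T and NK cell genes reached a mean of 1 TPM (*Cd3g*, *Gzma* and *Cd2* were at 0 in every library), and 2 of 7 macrophage genes did, with sums of 4.49 to 11.5 TPM in WT and 3.66 to 4.69 TPM in *Ltf*-KO libraries. Of 7 fibroblast genes, 5 averaged 1 TPM or more, with sums of 11.02 to 16.7 TPM in WT and 14.5 to 22.9 TPM in *Ltf*-KO libraries, and of 6 smooth muscle and pericyte genes, 3 did, with sums of 450.4 to 537 TPM in WT and 499.8 to 634 TPM in *Ltf*-KO libraries. In the smooth muscle and pericyte list, *Acta2* alone averaged 458 TPM in WT and 526 TPM in *Ltf*-KO libraries. Of the rest of that list, *Cspg4* was at 30.8 to 41.1 TPM and *Notch3* at 5.95 to 9.07 TPM, while *Myh11*, *Rgs5* and *Kcnj8* were at 0.62 TPM or less in every library. The part of other cells in the values below was not tested. In these bulk cultures, fewer cells of a type and less RNA per cell cannot be told apart.

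The genes of the 26S proteasome, that is the alpha, constitutive beta and 19S subunits, were among the more abundant transcripts of the SCs in both genotypes. All 32 such members had a mean between 78.2 TPM (*Psma2*) and 449 TPM (*Psmd8*), and the lowest of them was above 85.9% of the 12956 genes that averaged 1 TPM or more. Across the 6 libraries, the highest value of such a gene was 1.02 to 1.28 times its lowest. Summed over all 44 members, the pathway took 7478 ± 38.7 TPM in WT and 7458 ± 65.5 TPM in *Ltf*-KO libraries (mean ± SD, n = 3 each, as for every mean below).

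**Figure D1:**
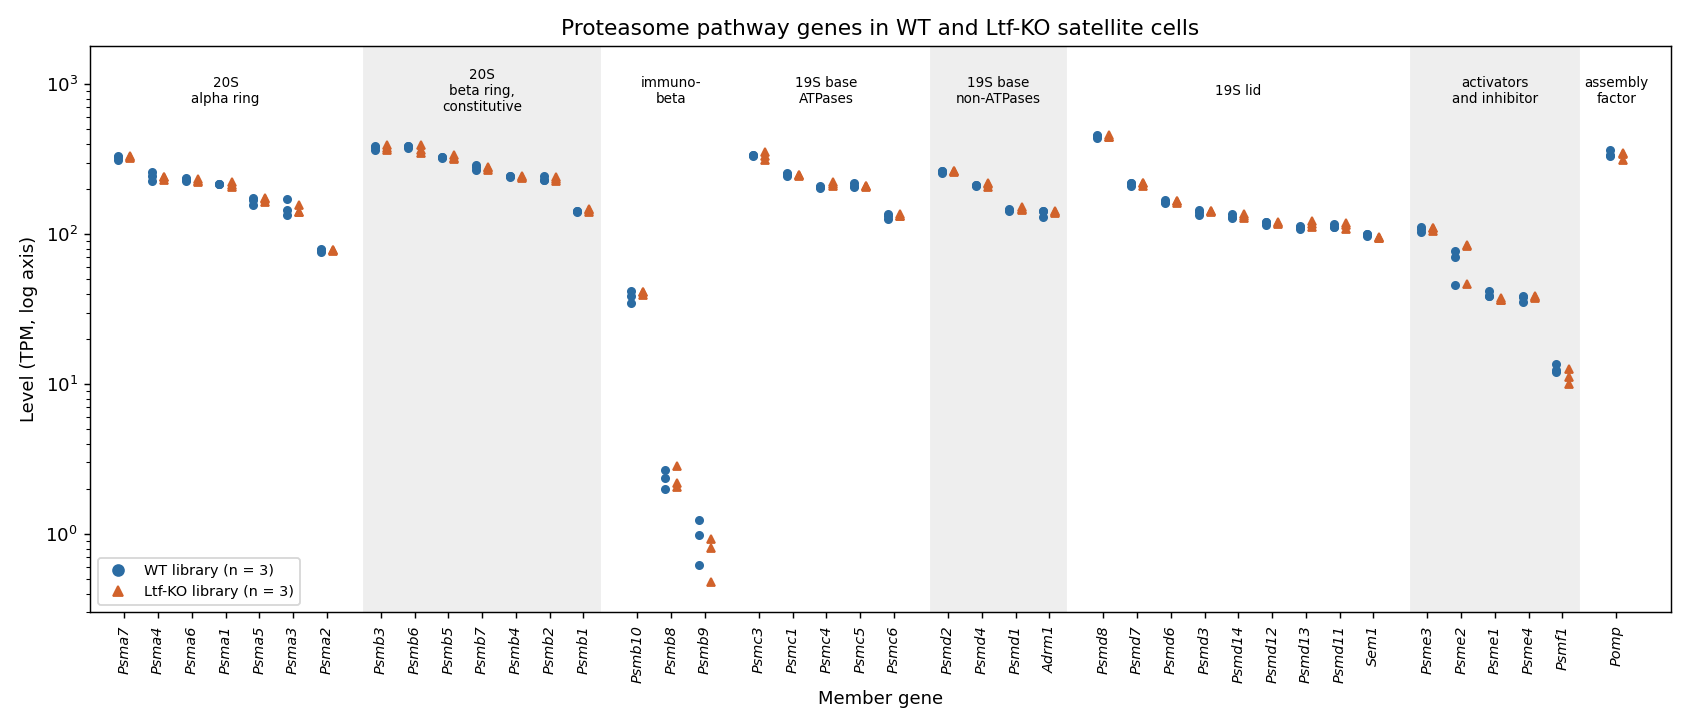
TPM of 41 proteasome pathway genes on a log axis, grouped by role and ordered by mean level, with a circle for each WT library and a triangle for each *Ltf*-KO library; *Ifng*, *Psma8* and *Psmb11*, at or near 0, are left out. The 26S subunits lie between 78.2 and 449 TPM on average, *Psmb8* and *Psmb9* lie far below them, and the libraries of both genotypes lie on top of each other for nearly every gene.

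The 7 alpha subunits, which form the gate of the core, averaged 201 TPM per gene in WT and 200.2 TPM in *Ltf*-KO libraries. *Psma7* was the highest, at 312, 332 and 327 TPM in WT and 334, 328 and 321 TPM in *Ltf*-KO libraries. *Psma2* was the lowest, at 78.6, 76.6 and 79.5 TPM in WT and 78.7, 76.8 and 78.9 TPM in *Ltf*-KO libraries. The genotypes overlapped for both genes, and the level of *Psma7* was 3.97 to 4.34 times that of *Psma2* within a library. Between them lay *Psma4* at a mean of 239.6 TPM, *Psma6* at 230.2, *Psma1* at 215, *Psma5* at 169 and *Psma3* at 148 TPM.

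The 7 constitutive beta subunits averaged 284 TPM per gene in WT and 281 TPM in *Ltf*-KO libraries. *Psmb3*, a structural subunit without a cutting site, was the highest, at 379, 367 and 389.7 TPM in WT and 362, 373 and 392 TPM in *Ltf*-KO libraries. *Psmb1*, also structural, was the lowest, at 143, 141 and 143 TPM in WT and 145, 140.2 and 148 TPM in *Ltf*-KO libraries. Both genes overlapped between genotypes, and within a library *Psmb3* was 2.51 to 2.72 times *Psmb1*. The other structural subunits *Psmb4* and *Psmb2* had means of 242 and 233 TPM. Subunits of 1 ring, which enter the complex in equal number, thus differed in transcript level by more than their spread between libraries.

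The cutting subunits differed from their inducible forms by 7.04-fold in one pair and by over 100-fold in the others. *Psmb5* (ENSMUSG00000022193), which cuts after hydrophobic residues, was at 321, 325 and 328 TPM in WT and at 316, 338 and 319.6 TPM in *Ltf*-KO libraries. Its inducible form *Psmb8* (ENSMUSG00000024338) was at 2.0, 2.67 and 2.38 TPM in WT and at 2.06, 2.86 and 2.18 TPM in *Ltf*-KO libraries. Both genotypes overlapped for each gene, and *Psmb5* was 118 to 160.6 times *Psmb8* within a library. *Psmb6* (ENSMUSG00000018286), which cuts after acidic residues, was at 386, 389.8 and 377 TPM in WT and at 363, 349 and 395 TPM in *Ltf*-KO libraries. Its inducible form *Psmb9* (ENSMUSG00000096727) was at 0.99, 1.24 and 0.62 TPM in WT and at 0.93, 0.81 and 0.48 TPM in *Ltf*-KO libraries. *Psmb9* was under the mean of 1 TPM needed for a test, and *Psmb6* exceeded it 314- to 823-fold within a library. *Psmb7* (ENSMUSG00000026750), which cuts after basic residues, was at 269, 280.4 and 291 TPM in WT and at 269, 277 and 282 TPM in *Ltf*-KO libraries. Its inducible form *Psmb10* (ENSMUSG00000031897) was at 35.0, 41.7 and 38.7 TPM in WT and at 39.0, 41.3 and 41.2 TPM in *Ltf*-KO libraries. *Psmb10* was therefore the only inducible form with a substantial level, and *Psmb7* was 6.70 to 7.70 times as high.

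As a share of its pair, *Psmb8* made up 0.718% ± 0.0978 of *Psmb8* plus *Psmb5* in WT and 0.722% ± 0.104 in *Ltf*-KO libraries. The share of *Psmb9* was 0.246% ± 0.0770 of *Psmb9* plus *Psmb6* in WT and 0.203% ± 0.0717 in *Ltf*-KO libraries. *Psmb10* made up 12.1% ± 0.780 of *Psmb10* plus *Psmb7* in WT and 12.8% ± 0.160 in *Ltf*-KO libraries. Every share overlapped between the genotypes. The transcripts of *Psmb9* and *Tap1*, a peptide transporter gene at 6.46 to 7.51 TPM, overlap on opposite strands over 212 bases in GENCODE M21, and the sources used here do not say whether counting used strand, so reads there cannot be assigned. The tissue-restricted core genes were close to absent, with *Psma8*, an alpha subunit of the testis, at 0 in 5 libraries and 0.09 TPM in *Ltf*-KO 2, and *Psmb11*, a beta subunit of the thymus, at 0 to 0.03 TPM. *Ifng* was at 0 TPM in all 6 libraries.

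**Figure D2:**
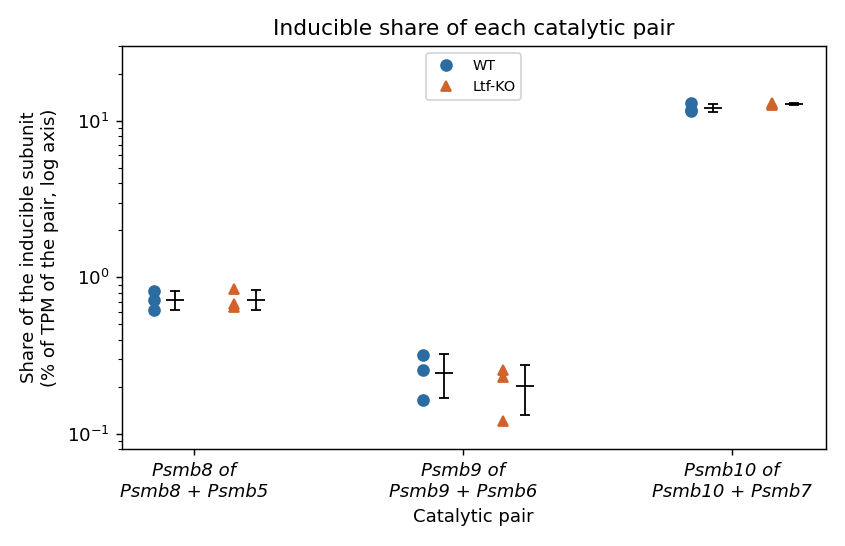
Share of the inducible subunit in the summed TPM of each catalytic pair, in percent on a log axis, with a circle for each WT library, a triangle for each *Ltf*-KO library and bars for the mean ± SD (n = 3). *Psmb8* and *Psmb9* stay under 1% of their pairs in every library, and *Psmb10* takes 11.5% or more of its pair.

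The 19S base holds the ATPase ring and the subunits that bind ubiquitin. Its 5 member ATPases averaged 227 TPM per gene in both genotypes. *Psmc3* was the highest ATPase, at 333, 335 and 338 TPM in WT and 313, 333 and 351 TPM in *Ltf*-KO libraries. *Psmc6* was the lowest, at 126, 135 and 133 TPM in WT and 136, 132 and 131 TPM in *Ltf*-KO libraries. Neither gene separated the genotypes. *Psmc1*, *Psmc4* and *Psmc5* had means of 249, 211 and 209.7 TPM. The ring's 6th ATPase, *Psmc2*, carries no pathway entry in the table and is outside the rule, but its levels of 136, 134 and 136 TPM in WT and 137, 135 and 131 TPM in *Ltf*-KO libraries lay within the range of the others.

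Of the base subunits without ATPase activity, *Psmd2*, a scaffold, was the highest, at 256, 263 and 264 TPM in WT and 259, 264 and 264 TPM in *Ltf*-KO libraries. *Adrm1*, a ubiquitin receptor that also holds the deubiquitinase Uchl5, was the lowest, at 142, 129.8 and 142 TPM in WT and 142, 139 and 140.5 TPM in *Ltf*-KO libraries. The genotypes overlapped for both. The scaffold *Psmd1* and the ubiquitin receptor *Psmd4* had means of 146 and 212.5 TPM.

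The 9 lid genes averaged 172 TPM per gene in both genotypes and held both the highest and one of the lowest 26S transcripts. *Psmd8* was at 449.8, 440.3 and 456 TPM in WT and at 444, 459.7 and 443 TPM in *Ltf*-KO libraries. *Sem1*, the smallest lid subunit, was at 97.2, 101 and 101 TPM in WT and at 94.8, 94.6 and 96.3 TPM in *Ltf*-KO libraries. All 3 *Ltf*-KO libraries were below all 3 WT libraries for *Sem1*, the closest pair being 97.2 and 96.3 TPM, and *Psmd8* overlapped. *Psmd14*, the metalloprotease that removes the ubiquitin chain, had a mean of 132 TPM, and the structural subunits had means of 216 (*Psmd7*), 165 (*Psmd6*), 141 (*Psmd3*), 118.5 (*Psmd12*), 114 (*Psmd13*) and 113.5 TPM (*Psmd11*).

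The assembly factor *Pomp*, which guides the beta ring onto the alpha ring, was at 361, 338 and 333 TPM in WT and at 346, 345 and 312 TPM in *Ltf*-KO libraries, among the levels of the highest core subunits. The other activators and the inhibitor were lower. *Psme3*, which forms the nuclear PA28-gamma cap, was at 111, 103 and 108 TPM in WT and at 110.0, 109 and 105 TPM in *Ltf*-KO libraries. *Psme4*, the PA200 cap, was at 35.0, 38.6 and 38.2 TPM in WT and at 37.5, 37.9 and 38.7 TPM in *Ltf*-KO libraries. Both caps overlapped between genotypes. *Psmf1*, which encodes the inhibitor PI31, was the lowest member of this set, at 13.6, 12.0 and 12.5 TPM in WT and at 11.1, 10.0 and 12.6 TPM in *Ltf*-KO libraries. The highest value of *Psmf1* in *Ltf*-KO libraries lay within the WT range, and the others lay below it.

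The PA28 subunits, which form 1 ring, differed in their spread over the libraries. *Psme1* (ENSMUSG00000022216) was at 41.5, 38.8 and 38.7 TPM in WT and at 37.7, 36.2 and 36.3 TPM in *Ltf*-KO libraries. *Psme2* (ENSMUSG00000079197) was at 69.9, 77.8 and 45.7 TPM in WT and at 85.2, 46.7 and 83.6 TPM in *Ltf*-KO libraries. *Psme1* did not overlap between genotypes, with all *Ltf*-KO libraries lower, while *Psme2* had 1 low library in each genotype (WT 3 and *Ltf*-KO 2) and 4 higher ones. The highest *Psme2* value was 1.86 times the lowest, against 1.15 times for *Psme1*. The copy *Psme2b*, whose transcript is 99.4% identical to that of *Psme2* over 794 bases, was at 0 to 0.63 TPM. The libraries WT 3 and *Ltf*-KO 2 also had the lowest sums of the 8 differentiating muscle markers, 1541 and 1579 TPM, where the other libraries had 1624 to 2412 TPM, and the highest sums of the 6 endothelial markers, 14.8 and 13.1 TPM, where the others had 5.45 to 11.6 TPM (4 of the 6 averaged 1 TPM or more and none was at 0 throughout). This comparison was made after the *Psme2* values were seen, and not every gene followed its list's sum. *Acta1* was lowest in WT 1 (843.7 TPM, against 868.3 in WT 3), and *Ckm* was at 4.23 TPM in WT 1 and 5.53 in WT 3. *Cldn5* was at 0.63 TPM in *Ltf*-KO 1 and 0.22 in *Ltf*-KO 2, and *Emcn* at 3.47 and 3.46 TPM. The other genes of both lists followed the sums. The part of these cell types in the *Psme2* values was not tested.

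**Figure D3:**
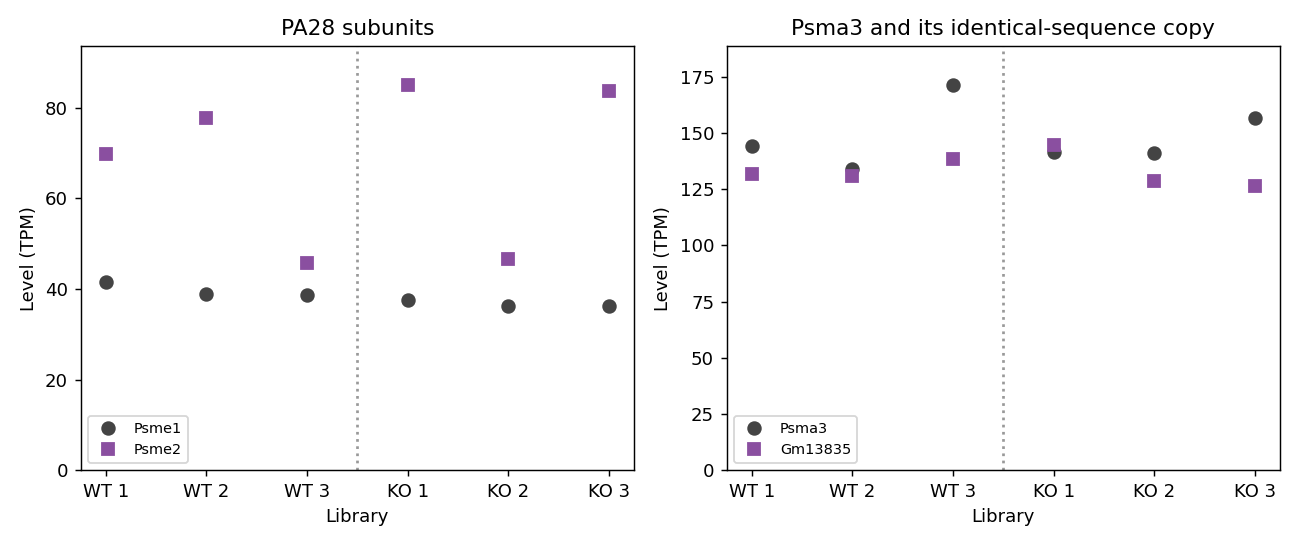
TPM per library of *Psme1* and *Psme2* (left) and of *Psma3* and the pseudogene *Gm13835* (right), with the dotted line between WT and *Ltf*-KO libraries. *Psme2* is low in WT 3 and *Ltf*-KO 2, *Psme1* is slightly lower in every *Ltf*-KO library, and *Gm13835* has nearly the level of *Psma3*.

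*Psma3*, singled out after its values were seen, varied more than the other 26S subunits, at 144, 134 and 172 TPM in WT and 141, 141 and 157 TPM in *Ltf*-KO libraries. Its transcript shares 685 bases at 100% identity with *Gm13835*, annotated as a processed pseudogene, which was listed at 132, 131 and 138 TPM in WT and 145, 129 and 126 TPM in *Ltf*-KO libraries. Reads from such a stretch fit both rows, so how the counting divided them can affect both values, and its part in the spread of *Psma3* was not tested. Added together, the rows gave 283 ± 23.5 TPM in WT and 279.6 ± 8.81 TPM in *Ltf*-KO libraries, a sum chosen after seeing the data, with a log2 fold change of -0.02 (SE 0.06, limma adjusted p = 0.999). The summed alpha ring was then 1544 TPM in WT and 1535 TPM in *Ltf*-KO libraries, in place of 1410.1 and 1402 TPM. Of the 15 genes whose transcripts aligned to 11 members on the same strand (at least 300 bases at 97% identity or more), *Gm13835* was the only one that averaged 1 TPM or more.

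The study's design asks whether SCs without lactoferrin differ from WT cells, and for the proteasome genes no difference passed the test. *Ltf*-KO was compared with WT by limma on log2(TPM + 1), fitted across the 12956 genes that averaged 1 TPM or more, and 40 members were among them. *Ifng*, *Psma8*, *Psmb9* and *Psmb11* were too low to be tested. By limma, 0 of the 40 members had an adjusted p under 0.05, as did 0 of all tested genes (0%), and 0 members had an unadjusted p under 0.05, where 490 of all tested genes did (3.78%). The smallest unadjusted p among members was 0.0566, for *Psme1*, and the adjusted p of every tested member was at least 0.999. Of the members, 20 were higher and 20 lower in mean log2(TPM + 1). The median log2 fold change was -0.00049 for the members and 0.01 for all tested genes, and single members ranged from -0.16 (*Psmf1*) to 0.14 (*Psme2*). The libraries of the genotypes did not overlap for 2 members (5%), *Psme1* and *Sem1*, both lower in *Ltf*-KO libraries, against 8.46% of all tested genes.

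A p above the threshold does not show that levels were equal, so the intervals matter more here. For 37 of 40 members (92.5%) the 95% interval of the fold change lay within 1.2-fold in both directions, against 46.9% of all tested genes. Intervals are narrower for abundant genes, and of the 1391 tested genes at 100 TPM or more, 88.5% met the same limit, as did all 32 members at that level. The members whose intervals were wider were *Psme2* (log2 fold change 0.14, SE 0.29, interval -0.55 to 0.82), *Psmb8* (0.00, SE 0.15, interval -0.35 to 0.36) and *Psmf1* (-0.16, SE 0.09, interval -0.38 to 0.06). The median coefficient of variation of the tested members was 2.76% among WT and 2.54% among *Ltf*-KO libraries, and that of all tested genes at 100 TPM or more was 3.42% and 3.55%.

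**Figure D4:**
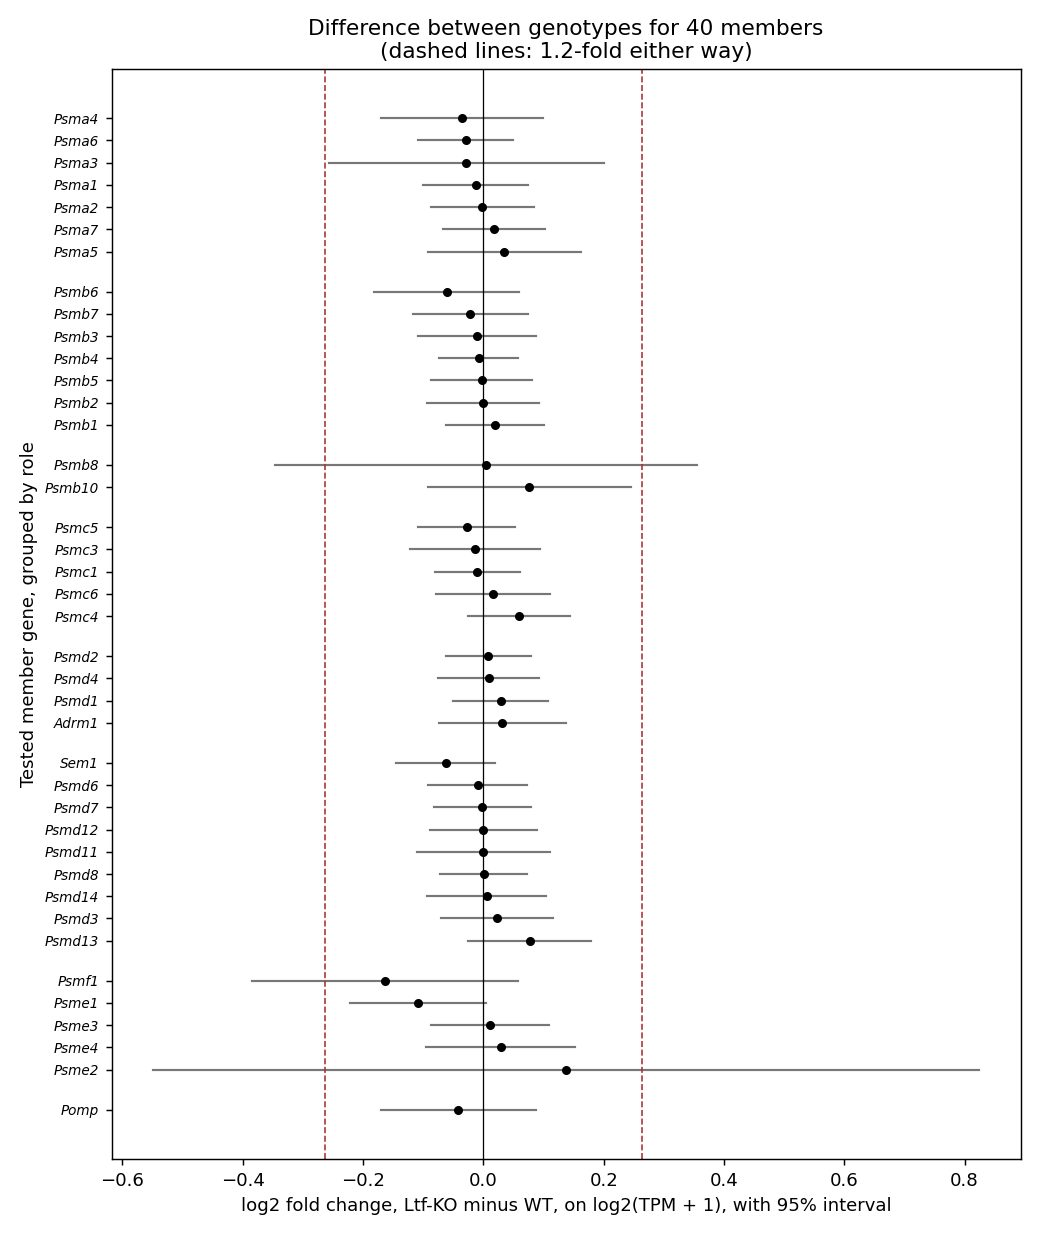
Log2 fold change of *Ltf*-KO against WT on the log2(TPM + 1) scale for the 40 tested members, grouped by role, with points for the limma estimate and lines for its 95% interval. Dashed lines mark 1.2-fold either way, and only the intervals of *Psme2*, *Psmb8* and *Psmf1* cross them.

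By role, 5 of 7 alpha and 6 of 7 constitutive beta subunits were lower in mean log2(TPM + 1) in *Ltf*-KO libraries. Of the base and lid subunits without ATPase activity, 10 of 13 were higher. Every one of these log2 fold changes lay between -0.06 and 0.08, and none passed the test. Some of the higher ones were near 0, such as *Psmd12* (3.8e-05), *Psmd11* (0.0003) and *Psmd8* (0.001). With median-of-ratios scaling the members' median moved from -0.00049 to -0.0109, so the direction of such genes can depend on the scaling. These counts were not repeated under that scaling. The cutting subunits had log2 fold changes of -0.00 (*Psmb5*, SE 0.03), -0.06 (*Psmb6*, SE 0.05) and -0.02 (*Psmb7*, SE 0.04), and the inducible *Psmb10* had 0.08 (SE 0.07). Among the caps, *Psme1* had -0.11 (SE 0.05, interval -0.22 to 0.00), *Psme3* 0.01 (SE 0.04) and *Psme4* 0.03 (SE 0.05). *Pomp* had -0.04 (SE 0.05) and *Sem1* -0.06 (SE 0.03). The largest value among 26S subunits was 0.08 for *Psmd13*, a lid subunit, at 113, 111 and 108 TPM in WT and 122, 112 and 117 TPM in *Ltf*-KO libraries, which overlap. The transcripts of *Psmd13* and *Sirt3* overlap on opposite strands, as do those of 6 other members with another gene.

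Genes that serve the proteasome outside the pathway list were read in the same fit. Of 7 assembly chaperones, 0 passed an unadjusted p of 0.05, and 6 were lower in mean, from -0.10 on the log2 scale for *Psmd10*. Of 14 proteasome-bound deubiquitinases, shuttle factors and ligases, 2 had an unadjusted p under 0.05, both lower in *Ltf*-KO libraries and both enzymes that trim ubiquitin on the 19S particle, where 3.78% of all tested genes had such a p. *Usp14* was at 99.1, 98.9 and 100.4 TPM in WT and 96.0, 93.2 and 90.2 TPM in *Ltf*-KO libraries (log2 fold change -0.09, SE 0.04, limma adjusted p = 0.999). *Uchl5* was at 58.4, 49.0 and 51.5 TPM in WT and 48.5, 46.7 and 42.4 TPM in *Ltf*-KO libraries (-0.20, SE 0.08, limma adjusted p = 0.999). Neither gene overlapped between genotypes (8.46% of all tested genes did not), and neither passed the adjustment. *Psmd14*, the deubiquitinase that is a member, had a log2 fold change of 0.01 (SE 0.04).

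Of the 6 ubiquitin and E1 genes, 0 passed the unadjusted threshold. The polyubiquitin gene *Ubb* was at 1102, 1064 and 1111 TPM in WT and 1052, 1093 and 1081 TPM in *Ltf*-KO libraries. It overlapped between the genotypes and stood above every proteasome subunit. Of the 11 genes of the NRF1 route, by which cells renew proteasome transcripts when proteasome activity is short, 0 passed. *Nfe2l1*, which encodes NRF1, was at 89.9, 112 and 109 TPM in WT and 111, 114 and 103 TPM in *Ltf*-KO libraries, and its relative *Nfe2l2* was at 81.8, 80.8 and 77.5 TPM against 81.0, 82.6 and 75.1 TPM. Neither separated the genotypes.

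Of 12 genes of antigen processing and the interferon-gamma response, 0 passed the unadjusted threshold, and 9 were higher in mean. *Irf1*, a factor that drives the inducible subunits, was at 3.83, 5.66 and 3.98 TPM in WT and 3.22, 4.82 and 4.53 TPM in *Ltf*-KO libraries. Its level was within a few TPM of that of *Psmb8* and overlapped between the genotypes.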

How the data were processed

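RNA-seq was analysed in SCs cultured for 4 days, with 3 WT and 3 *Ltf*-KO libraries, grouped by the labels. The authors deposited TPM values per gene with 2 decimals, which sum to 993650 to 994356 per library, and the submitters' processing notes name GRCm39. That the values are TPM was read from these sums. The aligner, counting tool and strand setting are not given in the sources used here. TPM keeps no depth, so precision was judged from the spread between libraries.

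limma 3.58.1 (R 4.3.3) with a variance trend was fitted, on log2(TPM + 1), to the 12956 genes that averaged 1 TPM or more, with two-sided tests, Benjamini-Hochberg adjustment over all of them and a threshold of 0.05. The pseudocount of 1 understates the change of low genes. The fit was tested on data simulated with independent normal noise on the log scale. Such data cannot show faults that come from shared reads or from cultures that are not independent. The members and gene lists were chosen with earlier results of these data known. All members were named with their level, and values per library were given for the cutting pairs, the activators, *Psmf1*, *Pomp*, the highest and lowest member of each subcomplex, and, outside the pathway, genes at an unadjusted p under 0.05 and *Nfe2l1*, *Nfe2l2*, *Ubb*, *Irf1*, *Fbxo32* and *Trim63*. The values of 2 other genes are not reported here. *Psma3*, *Gm13835*, *Psmd13*, *Sem1* with its test, *Psmc2* and other genes were added after their values were seen. Shared sequence was found with blastn 2.17.0 among GENCODE M21 (GRCm38) transcripts. Alternatives were a pseudocount of 0.1, no filter or a mean of at least 10 TPM, the replicate number as a block, quantile and median-of-ratios scaling, no variance trend, and each library left out in turn.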

Additional observations from a re-analysis of the deposited data

How the results depend on the processing

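No member had an adjusted p under 0.05 by limma under any alternative run. *Psme1* had an unadjusted p under 0.05 with no filter on low values, with quantile normalization and with median-of-ratios scaling, which gave a count of 1 member each, and the cause was not tested. Leaving out 1 library gave 0 to 2 members (*Psmd13* without *Ltf*-KO 2, *Psmb6* and *Psmf1* without *Ltf*-KO 3) and 0 to 7 genes of all tested at an adjusted p under 0.05 (7 without WT 2, 6 without *Ltf*-KO 1, 3 without *Ltf*-KO 3, 2 without WT 3 and 2 without *Ltf*-KO 2). The genes at an unadjusted p under 0.05 numbered 890 with no filter, where more genes were tested (26553), and 281 at a mean of at least 10 TPM, where fewer were (8072). Of the 490 calls given in the report, 46.9% were lower in *Ltf*-KO libraries, and the share was 60.04% with quantile normalization and 55.8% with median-of-ratios scaling.

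Some values changed sign, and the cause was not tested. Most were close to 0, but *Psme2*, the highest of the members at 0.14, was among them. *Psmb8* had a log2 fold change of -0.0119 with quantile normalization and -0.0028 with median-of-ratios scaling. With each library left out in turn, the log2 fold change ranged from -0.0311 to 0.0158 for *Psmb5*, -0.0980 to 0.0727 for *Psmb8*, -0.0500 to 0.00624 for *Psmb7*, -0.0881 to 0.418 for *Psme2*, -0.0147 to 0.0343 for *Psme3*, -0.0142 to 0.0534 for *Psme4*, -0.0670 to 0.00688 for *Pomp*, -0.104 to 0.0722 for *Psma3*, -0.0146 to 0.144 for *Nfe2l1* and -0.0357 to 0.0322 for *Nfe2l2*. The lowest *Psme2* value came without WT 3 and the highest without *Ltf*-KO 2. Other values kept their sign but moved by over 1.5 times without 1 library. Those of *Psmb10* ranged from 0.0118 (without WT 1) to 0.135 (without WT 2), of *Psmb6* from -0.112 (without *Ltf*-KO 3) to -0.0216 (without *Ltf*-KO 2), of *Psmf1* from -0.240 (without *Ltf*-KO 3) to -0.0915 (without *Ltf*-KO 2), of *Psmd13* from 0.0472 (without *Ltf*-KO 1) to 0.106 (without *Ltf*-KO 2) and of *Uchl5* from -0.254 (without WT 2) to -0.131 (without WT 1). The lid sum in WT was 1549.8 TPM with median-of-ratios scaling, and the alpha sum was 1544 TPM in WT and 1535 TPM in *Ltf*-KO libraries with *Gm13835* added. Of the values computed under alternatives, 383 were kept, 15 moved and 18 changed sign. To be kept, the log2 fold change of a gene had to hold its direction and side of the threshold. Other quantities had to stay close to the value given. The members' median log2 fold change was kept by closeness, though its sign varied, from -0.00925 to 0.00873 with each library left out.

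With replicate numbers fitted as a block, 380 genes and 0 members had an unadjusted p under 0.05, against 490 genes and 0 members without the block. The count at an adjusted p under 0.05 was 0 genes in both fits. Same-numbered libraries did not deviate together (correlations of -0.04, -0.06 and -0.09), so no pairing by number was seen. The correlations cannot exclude one, and the sources used here do not say whether same-numbered cultures were handled together.

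As TPM keeps no read counts, tests on counts were not run, and precision rests on the spread of 3 libraries a genotype. The limma intervals in the report combine a gene's own spread with the variance trend over all tested genes. RNA levels say nothing of proteasome protein or activity.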

Other observations

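Muscle ubiquitin ligases and stress genes, which stand at either end of the proteasome route, were also read in the limma fit. Of 6 muscle ubiquitin ligases, 0 had an unadjusted p under 0.05, with 3 higher and 3 lower in mean. *Fbxo32* (atrogin-1), which rises in wasting muscle, was at 6.74, 7.44 and 7.43 TPM in WT and 7.34, 6.57 and 6.64 TPM in *Ltf*-KO libraries. *Trim63* (MuRF1), known for the same setting, was at 2.20, 3.94 and 2.47 TPM in WT and 2.80, 2.24 and 3.68 TPM in *Ltf*-KO libraries. Both ligases were far below the 26S subunits and overlapped between genotypes. Of 9 autophagy receptors and stress response genes, 0 had an unadjusted p under 0.05, with log2 fold changes from -0.24 (*Ddit3*, SE 0.18) to 0.09 (*Hspa1b*, SE 0.16). The ubiquitin receptor of autophagy *Sqstm1* had a mean of 490.0 TPM, above every member, and a log2 fold change of -0.04 (SE 0.10).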
